A study of Mus musculus with 2 samples.

Results

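The Ms4a family was followed through single-cell RNA profiles of immune cells from mouse tumours. It was represented by 8 listed genes, Ms4a1, Ms4a4a, Ms4a4b, Ms4a4c, Ms4a6b, Ms4a6c, Ms4a6d and Ms4a7, taken by symbol, and all 8 were present among the 55357 genes of both count matrices. The tumours grew under the skin from MC38, a mouse colon carcinoma cell line, in C57BL/6 mice that the labels call UEIS KI and UEIS LSL. Each genotype was represented by 1 droplet library of 3' ends, and the library names carry CD45, the pan-leukocyte surface protein. The labels do not spell out either abbreviation, name no promoter or Cre driver, and give neither the age nor the number of mice nor whether tumours were pooled. UEIS matched no gene symbol in the matrices, so the altered locus could not be checked in either library.

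Ms4a genes encode small membrane proteins whose chain crosses the membrane several times, and many of them sit beside other receptors and modify their signalling. The founding member, Ms4a1, encodes CD20, the surface protein of mature B cells. In mice the Ms4a4 and Ms4a6 branches have expanded by tandem duplication, and their members are used by monocytes, macrophages, dendritic cells, T cells and NK cells.

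All 8 genes lay on chromosome 19 within 355 kb (GRCm38, 11249675 to 11604849), with 5 on the plus strand and 3 on the minus strand. Ms4a1 stood at 11249675 to 11266241, Ms4a7 at 11321039 to 11336146 and Ms4a6d at 11586604 to 11604849, all on the minus strand. The plus strand held Ms4a4a at 11375523 to 11392790, Ms4a4c at 11404770 to 11427246, Ms4a4b at 11443553 to 11467055, Ms4a6c at 11469366 to 11482192 and Ms4a6b at 11516512 to 11531256. Some of these genes were close relatives in sequence. Identical bases were counted against the length of the longer coding sequence of each pair. By this measure Ms4a4b and Ms4a4c shared 91.7%, Ms4a6b and Ms4a6d 82.2%, and Ms4a6b and Ms4a6c 77.0%, the 3 closest of 28 pairs. The coding sequence of Ms4a6c was shorter, 651 bases against 732 of Ms4a6b. Over aligned bases alone, Ms4a6b was identical to Ms4a6c at 88.4% and to Ms4a6d at 84.9%. Reads from such close copies can be assigned to the wrong gene, so the last 500 bases of each transcript, where a 3' library reads, were searched for stretches of 91 bases shared with any other gene. Only Ms4a6c had any, 6 of 410, all in Ms4a6b, and the other 7 genes had 0 of 410. By exact stretches of 91 bases, the closest paralogs were therefore countable apart over nearly all of this window. Stretches of 25 bases were shared more often within the family. Of those in the Ms4a4c window, 117 of 476 were found in Ms4a4b, and 86 of 476 in the Ms4a6c window were found in Ms4a6b. The windows of the other members shared none. A single transcript of each gene supplied the window, so other transcript ends were not covered.

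Promoters from RefSeq (GRCm38.p6, 250 bases before to 50 bases after the start) were found for 6 of the 8 genes (7 promoters in all), and not for Ms4a1 or Ms4a6d. Of 15 promoter pairs, 2 stood apart by alignment score. They are printed because these similar stretches lie around the RefSeq starts of genes whose levels differ by cell class. Those of Ms4a4c and Ms4a6b lie inside the gene spans given above, after the starts at 11404770 and 11516512, so the annotations place these starts differently. Capitals mark bases that differ from the partner or have no counterpart in it within the aligned stretch.
Ms4a4b (chr19:11443308-11443607, plus strand): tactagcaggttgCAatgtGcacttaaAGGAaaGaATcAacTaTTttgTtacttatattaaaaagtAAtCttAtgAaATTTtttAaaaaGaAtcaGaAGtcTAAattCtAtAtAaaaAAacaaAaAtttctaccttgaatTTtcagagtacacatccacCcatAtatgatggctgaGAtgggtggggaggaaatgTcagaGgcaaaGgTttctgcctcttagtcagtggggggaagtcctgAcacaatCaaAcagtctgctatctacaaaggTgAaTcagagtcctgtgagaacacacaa
Ms4a4c (chr19:11407411-11407710, plus strand): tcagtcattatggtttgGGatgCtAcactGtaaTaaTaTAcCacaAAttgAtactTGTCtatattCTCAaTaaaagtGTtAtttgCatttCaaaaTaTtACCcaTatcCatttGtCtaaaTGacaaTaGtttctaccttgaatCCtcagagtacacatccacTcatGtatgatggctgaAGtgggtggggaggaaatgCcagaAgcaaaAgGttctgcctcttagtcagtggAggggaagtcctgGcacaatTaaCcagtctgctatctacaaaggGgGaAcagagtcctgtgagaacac
Ms4a6b (chr19:11518309-11518608, plus strand): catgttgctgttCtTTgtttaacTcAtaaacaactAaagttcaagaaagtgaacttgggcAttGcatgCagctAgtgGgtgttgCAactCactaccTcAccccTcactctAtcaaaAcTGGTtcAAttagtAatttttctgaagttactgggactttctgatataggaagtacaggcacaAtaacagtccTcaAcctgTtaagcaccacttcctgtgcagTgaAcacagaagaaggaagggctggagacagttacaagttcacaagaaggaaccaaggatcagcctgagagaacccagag
Ms4a6c (chr19:11469118-11469417, plus strand): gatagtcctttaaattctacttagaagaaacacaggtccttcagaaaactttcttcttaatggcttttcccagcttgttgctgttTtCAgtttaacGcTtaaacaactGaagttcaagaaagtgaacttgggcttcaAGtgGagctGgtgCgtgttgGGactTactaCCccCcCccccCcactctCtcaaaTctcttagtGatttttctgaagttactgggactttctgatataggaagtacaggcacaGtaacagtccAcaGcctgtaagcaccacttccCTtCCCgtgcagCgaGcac
Ms4a4b and Ms4a4c aligned over 271 bases, 229 of them identical (84.5%), with a longest identical run of 20 bases. Ms4a6b and Ms4a6c aligned over 216 bases with 193 identical (89.4%) and a longest identical run of 48, a stretch at -248 to -24 from the start of Ms4a6b and at -175 to 49 from that of Ms4a6c, so the start sites did not align. The alignment scores of these pairs were 149.5 and 147.5, against 21.5 for the next pair. Both promoters of the Ms4a4 pair held the PU.1 core GAGGAA, 61 bases before the start in Ms4a4c and 64 bases before it in Ms4a4b, on the strand of the gene. Counting both strands, 3 of 7 promoters of these genes held it, the other being that of Ms4a7, as did 28.3% of all 32851 RefSeq promoters. The interferon-stimulated response element (GAAA, 2 bases of any kind, GAAA, in 3.44% of all promoters) and the GAS element TTCNNNGAA (8.30%) were in 0 of the 7.

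After filtering, 8685 UEIS KI cells and 8646 UEIS LSL cells remained, with a median of 8642 and 7892 unique molecular identifiers (UMIs, each standing for 1 captured RNA molecule). Cells were classed by marker genes, with no Ms4a gene used, into 6472 and 6230 macrophages, 168 and 164 monocytes, 130 and 227 cDC2, 57 and 88 mature dendritic cells, 81 and 79 T cells, 16 and 16 NK cells, and 17 and 13 B cells (UEIS KI and UEIS LSL). Macrophages held all 12 of their markers, summing to 17363 and 17628 CPM (UMIs scaled to a total of 1000000 for the class), and T cells all 10 of theirs at 5761 and 6983 CPM. In the T cells the 12 macrophage markers summed to 1041 and 661 CPM, with Csf1r and Mertk at 0 in both libraries. The T cell gate itself capped the macrophage markers and required Csf1r to be 0. The low sum and the absence of Csf1r therefore follow from the gate and do not test the purity of the class. In monocytes the 12 macrophage markers summed to 4382 and 4959 CPM, beside 12394 and 10110 CPM of the 10 monocyte markers. Macrophages and T cells were gated on these same markers, and monocytes on most of theirs. The high sum of a class's own markers therefore also follows from its gate and does not test its identity. T, NK and B cells that also carried macrophage RNA were kept in classes of their own, and 1297 and 1280 cells met no gate. Cells within 20% of a cut were 330 and 264 for the C1q cut of monocytes and 660 and 481 for the macrophage cut. The libraries shared 34 cell barcodes. Class sums are given as CPM with exact 95% Poisson intervals, which cover counting error only. With 1 library for each genotype there is no replicate of either, so no difference between genotypes was tested. Since each UMI stands for a molecule, levels are compared between genes without a length correction.

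Each Ms4a gene had its own distribution over the cell classes, and 3 patterns covered most of the family. Ms4a6c, Ms4a6d and Ms4a6b were shared by monocytes and macrophages, Ms4a7 was concentrated in macrophages, and Ms4a4b and Ms4a1 belonged to lymphocytes. The 8 genes together made up 1970 and 2265 CPM of macrophage RNA in UEIS KI and UEIS LSL and 2008 and 2838 CPM of monocyte RNA. They made up 63.2 and 122 CPM in fibroblasts, a class outside the immune system.

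**Figure D1:**
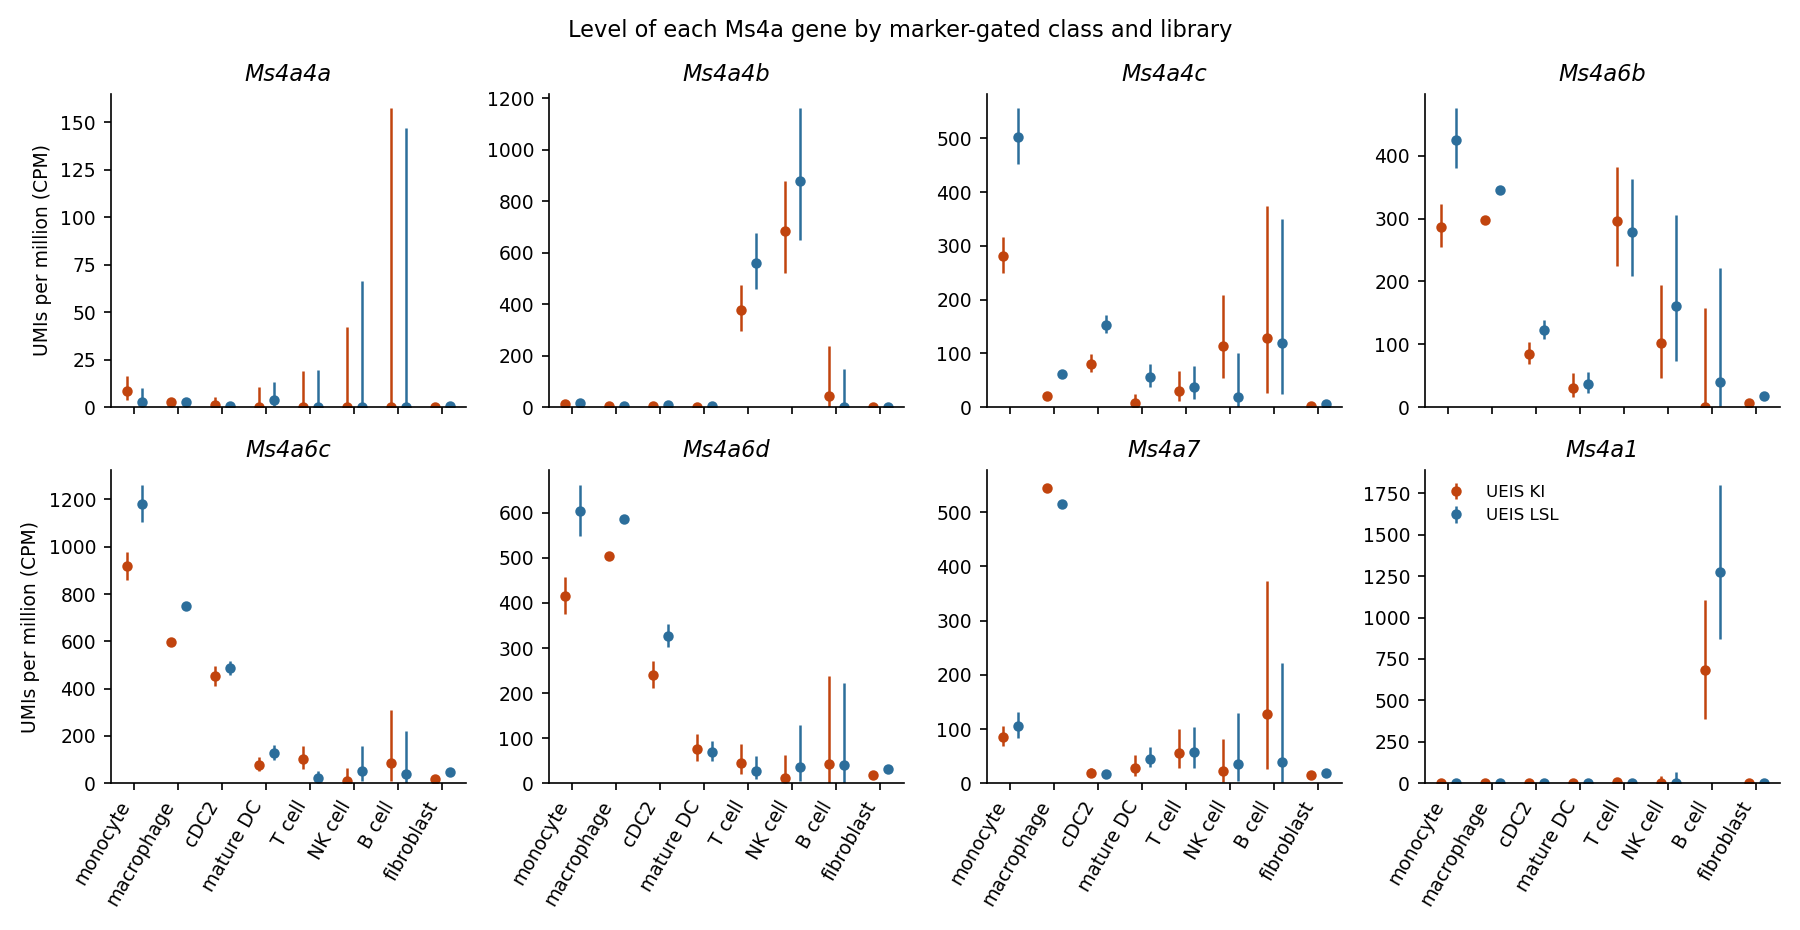
Level of each of the 8 Ms4a genes (CPM, vertical axis, a separate scale for each gene) in 8 marker-gated classes of UEIS KI (orange) and UEIS LSL (blue); points are class sums and bars are exact 95% Poisson intervals. Ms4a7 peaks in macrophages, Ms4a6c and Ms4a4c in monocytes, Ms4a4b in NK and T cells, and Ms4a1 in B cells; the long bars of B cells come from 17 and 13 cells.

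Among the monocyte and macrophage genes, Ms4a6c was the most abundant. It reached 917 CPM [858 to 980] in UEIS KI monocytes and 1181 [1104 to 1263] in UEIS LSL monocytes. Macrophages followed, at 596 and 749 CPM, and cDC2, the conventional dendritic cells that present antigen on MHC class II, at 452 and 488 CPM. Monocytes stood above macrophages in both libraries with intervals that did not overlap. Ms4a6c alone supplied 45.7% and 41.6% of the UMIs of the 8 genes in monocytes, 30.2% and 33.1% in macrophages and 51.4% and 43.7% in cDC2 (UEIS KI and UEIS LSL). Thinned to 1000 UMIs a cell, it was detected in 60.1% and 64.6% of monocytes and in 42.0% and 48.7% of macrophages. Before thinning the shares were 93.5% and 95.7% of monocytes and 88.1% and 90.9% of macrophages, where the median depth was 4687.5 and 3855 UMIs in monocytes and 9246 and 8345.5 in macrophages. In fibroblasts, a class that should lack the gene, the thinned share was 0.87% and 4.57% and the unthinned share 22.6% and 20.2%, at a median depth of 14540 and 16242 UMIs.

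Its relative Ms4a6d was divided more evenly. Macrophages held 504 CPM [499 to 510] in UEIS KI and 586 [580 to 593] in UEIS LSL, and monocytes 415 [375 to 457] and 604 [549 to 662]. The intervals of these classes overlapped in UEIS LSL and not in UEIS KI, so macrophages stood apart from monocytes in UEIS KI and not in UEIS LSL. cDC2 held 240 and 327 CPM.

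Ms4a7, which in the mouse brain marks macrophages of the borders over resident microglia, had the highest share of its UMIs in macrophages, 95.5% over the kept cells of both libraries. That share was 91.5% for Ms4a6b, 91.3% for Ms4a4a, 89.9% for Ms4a6d and 88.9% for Ms4a6c, in data where macrophages were also most of the cells. Its level was 545 CPM [539 to 551] in UEIS KI macrophages and 516 [510 to 521] in UEIS LSL macrophages, against 85.9 and 106 CPM in monocytes and 18.5 and 16.8 CPM in cDC2. Macrophages stood above each of the other 11 classes with at least 10 cells in both libraries, without overlap of intervals. Thinned shares of positive cells were 32.6% and 31.5% of macrophages (unthinned 70.6% and 68.5%), 2.98% and 8.54% of monocytes (23.8% and 24.4%), and 2.31% and 1.33% of cDC2 (13.8% and 11.0%). In fibroblasts the thinned shares were 1.74% and 1.02% (unthinned 20% and 19.7%), so the cDC2 shares were at that background.

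Whether such low levels exceed free macrophage RNA was read from C1q, the complement genes that mark macrophages. If all Ms4a7 in a class came with C1q in the ratio that macrophages have, cDC2 would hold 28.2 and 48.5 Ms4a7 UMIs, and 20 and 35 were counted, 0.71 times [0.43 to 1.09] in UEIS KI and 0.72 times [0.50 to 1.0] in UEIS LSL. Ms4a6c in cDC2 was 15.8 and 14.4 times the level at the macrophage ratio. The cDC2 gate itself keeps C1q low, so the size of such a multiple depends on the gate. Cells gated as neutrophils carried C1q at 7151 and 7065 CPM, close to the 9753 and 9750 CPM of macrophages, and their Ms4a6b, Ms4a6c, Ms4a6d and Ms4a7 were 0.81 to 0.99 times the macrophage ratio in UEIS KI and 0.87 to 1.41 times in UEIS LSL, so no level is read for neutrophils.

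Ms4a4c, a gene known in mice to be induced by interferon, had its peak in monocytes. It held 281 CPM [249 to 317] in UEIS KI monocytes and 502 [452 to 556] in UEIS LSL monocytes, against 80.5 and 154 CPM in cDC2 and 20.5 and 61.4 CPM in macrophages. Monocytes exceeded cDC2, and cDC2 exceeded macrophages, in both libraries with no overlap of intervals. B cells held 3 and 3 UMIs of Ms4a4c, 128 CPM [26.4 to 374] in UEIS KI and 120 [24.7 to 350] in UEIS LSL. The UEIS KI interval overlapped that of monocytes. NK cells held 10 and 1 UMIs, 114 CPM [54.5 to 209] and 17.9 [0.45 to 99.8]. In monocytes Ms4a4c made up 14.0% and 17.7% of the UMIs of the 8 genes, in macrophages 1.04% and 2.71%.

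Ms4a4a, whose human counterpart marks macrophages and associates with the fungal receptor Dectin-1, was scarce. Macrophages held 182 and 165 UMIs of it, 2.69 CPM [2.32 to 3.11] in UEIS KI and 2.82 [2.40 to 3.28] in UEIS LSL. Monocytes held 8 and 2 UMIs, 8.27 CPM [3.57 to 16.3] and 2.71 [0.33 to 9.80], and the order of these classes was not the same in both libraries. It had 0 UMIs in T, NK and B cells of both libraries, which at 3 counts of the class total allows up to 15.3 CPM in UEIS KI T cells and up to 128 CPM in UEIS KI B cells, above the macrophage level.

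Ms4a4b, which in mouse T cells associates with the costimulatory receptor GITR, was the leading member in T and NK cells. It reached 682 CPM [521 to 878] in UEIS KI NK cells and 878 [649 to 1161] in UEIS LSL NK cells, and 378 [296 to 474] and 561 [460 to 678] CPM in T cells. NK cells stood above T cells without overlap in UEIS KI, while in UEIS LSL the intervals overlapped. Macrophages held 2.78 and 4.88 CPM. Its thinned share of positive cells was 32.1% and 30.7% of T cells (unthinned 43.2% and 45.6%, median depth 2001 and 1862 UMIs) and 56.2% and 56.2% of NK cells (unthinned 87.5% and 93.8%). Among fibroblasts the thinned count was 0 of 115 and 0 of 197 cells, which at 3 counts of the total allows a share of up to 2.61% and 1.52%.

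Of the closely related pair Ms4a4b and Ms4a4c, whose promoters are printed above, T cells used mostly Ms4a4b, at 378 and 561 CPM, with Ms4a4c at 30.6 and 36.7 CPM. Monocytes had the reverse order, with Ms4a4b at 12.4 and 14.9 CPM and Ms4a4c at 281 and 502 CPM. Both libraries showed this exchange.

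Ms4a6b was the member most evenly shared between myeloid and T cells. It had 296 CPM [225 to 383] in UEIS KI T cells and 278 [208 to 364] in UEIS LSL T cells, against 299 and 345 CPM in macrophages and 288 and 426 CPM in monocytes. T cells and macrophages overlapped in their intervals in both libraries. In T cells 58 and 53 UMIs were counted where the C1q ratio gives 2.91 and 2.72, in a class whose gate limits macrophage RNA. The same ratio gave 4.91 and 4.63 UMIs for Ms4a6d in T cells, where 9 and 5 were counted, so Ms4a6d was not resolved from macrophage RNA there. Ms4a6c, whose promoter holds a stretch similar to that of Ms4a6b, had 102 and 21.0 CPM in T cells. Together Ms4a4b and Ms4a6b were the leading pair in T cells, with 41.3% and 57.2% of the UMIs of the 8 genes for Ms4a4b and 32.4% and 28.3% for Ms4a6b. With T cells taken from clusters instead of marker gates, Ms4a6c led and the share of Ms4a4b was 8.94% and 5.51%. In NK cells the share of Ms4a4b was 72.3% and 74.2%. T cells that also carried macrophage RNA had Ms4a4b at 98.7 and 103 CPM, with C1q at 5992 and 6824 CPM.

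Within the T cells, sets defined by markers were small. CD8 T cells, 8 in UEIS KI and 12 in UEIS LSL, had Ms4a4b at 525 CPM [262 to 939] and 1405 [1025 to 1879]. Regulatory T cells, 11 and 12, had 2 and 3 Ms4a4b UMIs, 70.0 CPM [8.48 to 253] and 106 [21.8 to 309]. Their Tnfrsf18, the gene of GITR, stood at 1400 and 1234 CPM, against 239 and 375 CPM in CD8 T cells. CD8 T cells exceeded regulatory T cells in Ms4a4b without overlap of intervals in both libraries.

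Ms4a1, the gene of CD20, was concentrated in B cells. The 17 UEIS KI B cells held 16 UMIs, 682 CPM [390 to 1107], and the 13 UEIS LSL B cells held 32, 1276 CPM [873 to 1802]. Cd79a, the signalling partner of the B cell receptor, had 2003 and 2672 CPM in the same cells. Macrophages held 9 and 18 Ms4a1 UMIs, 0.13 and 0.31 CPM.

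**Figure D2:**
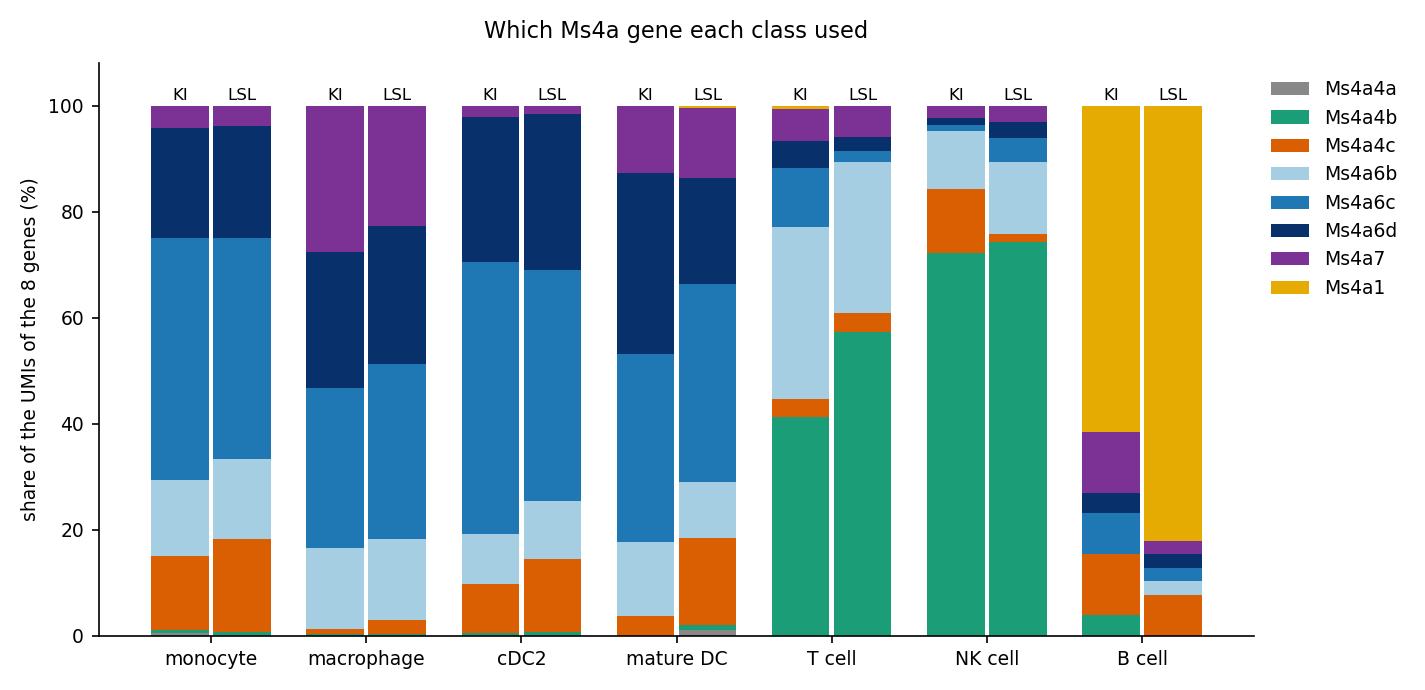
Share (percent of UMIs) of each Ms4a gene in the summed UMIs of the 8 genes, by marker-gated class, for UEIS KI (left of each pair) and UEIS LSL (right). Ms4a6c holds 51.4% and 43.7% in cDC2, Ms4a7 holds 27.7% and 22.8% in macrophages, Ms4a4b holds 72.3% and 74.2% in NK cells and Ms4a1 61.5% and 82.1% in B cells.

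Macrophages were then ordered by state, from marker sets that again held no Ms4a gene; a cell could meet more than 1 of the 9 gates. The summed level of the 8 genes was highest in macrophages rich in C1q and Ccl12 (3112 and 3326 CPM in UEIS KI and UEIS LSL), in resident-like macrophages (2863 and 3235) and in those of an interferon response without Cxcl9 (2966 and 2723). It was low in macrophages with hypoxia genes (769 and 1181) and in osteoclast-like macrophages (366 and 473). The hypoxic and osteoclast-like states were the lowest of the 9 in both libraries.

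The leading member by summed UMIs changed with state. Ms4a7 led in resident-like macrophages, at 856 and 972 CPM. By cells detected after thinning it was not set apart there from Ms4a6d. The shares were 49.5% for Ms4a7 and 51.1% for Ms4a6d in UEIS KI, and 51.2% and 50.7% in UEIS LSL. In C1q Ccl12 macrophages it led in UEIS KI, at 1049 CPM against 794 CPM of Ms4a6c, while in UEIS LSL it was not resolved from Ms4a6c, at 982 CPM [967 to 997] and 980 CPM [965 to 995]. Thinned to 1000 UMIs a cell, Ms4a7 was detected in 54.1% and Ms4a6c in 61.1% of these UEIS LSL cells. Ms4a6d led in hypoxic macrophages, at 293 and 458 CPM. In osteoclast-like macrophages Ms4a6d led in UEIS KI, at 160 CPM [141 to 181] against 87.9 CPM [73.8 to 104] of Ms4a6c, and in UEIS LSL the values of 157 CPM [127 to 192] and 146 CPM [117 to 179] overlapped. In Spp1 Arg1 macrophages Ms4a7 led in UEIS KI with 30.7% of the UMIs of the 8 genes, while Ms4a6d led in UEIS LSL with 34.1%. After thinning, Ms4a7 was detected in 28.1% of these UEIS KI cells, fewer than the 32.9% each of Ms4a6c and Ms4a6d. In macrophages high for MHC class II genes Ms4a6c led with 42.9% and 39.9% of the UMIs of the 8 genes, while Ms4a7 supplied 11.5% and 12.5%. Ms4a4c was highest in the interferon state, at 263 and 333 CPM, against 52.9 and 86.0 CPM in Cxcl9 macrophages and 10.6 and 19.9 CPM in resident-like ones.

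All monocytes and macrophages were ordered on the C1q share of their RNA, in 7 bins. The 2 bins with least C1q held 664 and 873 cells in UEIS KI and 856 and 692 in UEIS LSL, and since only 168 and 164 cells were gated as monocytes, these bins were mostly macrophages. Ms4a7 was lowest in the second bin and higher in each bin after it. Its level over the bins, from least to most C1q, was 139, 131, 192, 363, 680, 1012 and 1192 CPM in UEIS KI and 226, 172, 207, 356, 537, 930 and 1351 CPM in UEIS LSL. Its share of the 8 genes went with it, from 12.3% to 33.1% over the bins of UEIS KI and from 12% to 33.8% over those of UEIS LSL. Ms4a6c also had a higher CPM at the C1q-rich end, 872 and 1042 CPM against 456 and 684 CPM at the C1q-poor end, but its share of the 8 genes was 24.2% and 26.1% there against 40.3% and 36.4%. Ms4a4c ran the other way, at 10.3 and 30.4 CPM in the bin with most C1q and 55.0 and 143 CPM in the bin with least.

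**Figure D3:**
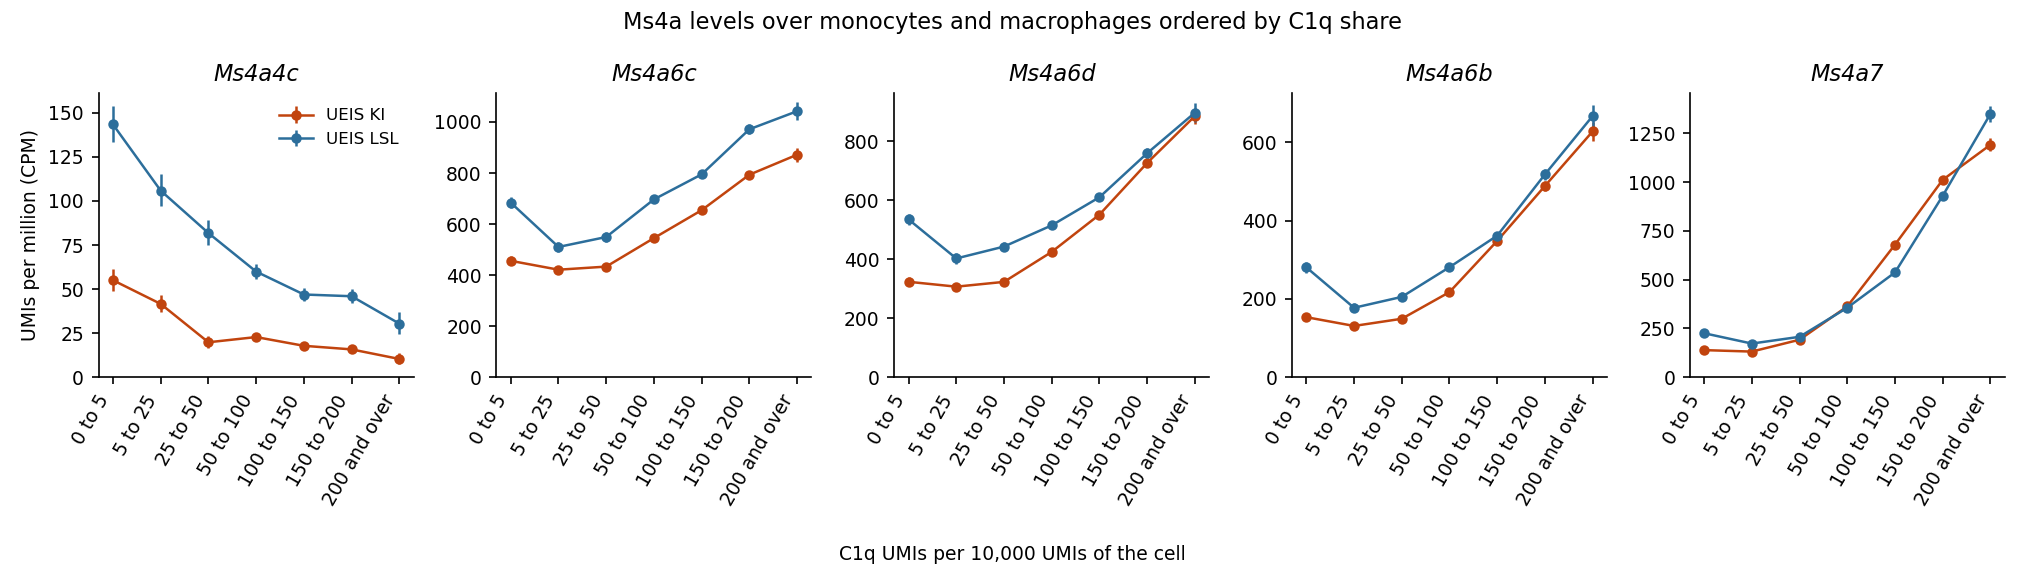
Level of Ms4a4c, Ms4a6c, Ms4a6d, Ms4a6b and Ms4a7 (CPM, vertical axis) in monocytes and macrophages ordered into 7 bins by the C1q share of their RNA (horizontal axis, per 10000 UMIs) in UEIS KI (orange) and UEIS LSL (blue), with exact 95% Poisson intervals. Ms4a7 reaches 1192 and 1351 CPM in the bin with most C1q, Ms4a4c stands at 10.3 and 30.4 CPM there, and UEIS KI lies below UEIS LSL for Ms4a4c in all 7 bins.

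Genes whose levels ran most like each member were taken over 18 points, 9 classes in each of 2 libraries. These points share libraries and, through the gates, cell type markers, so Pearson's r on log2(CPM + 10) is a description only. Ms4a7 was most like Aoah (r = 0.96), Pf4 (0.95) and C1qa (0.93). Ms4a6d was most like Cd68 (0.99), the lysosomal macrophage protein, Cd14 (0.98) and Pid1 (0.98). Ms4a6c was most like Cybb (0.98), a subunit of the phagocyte oxidase, Ms4a6d (0.98) and Pld4 (0.97). Ms4a6b followed Vsir (0.97), Lpxn (0.95) and Cmtm7 (0.95), and Ms4a4b followed Ctsw (0.98), Zap70 (0.98), the kinase of the T cell receptor, and Cxcr6 (0.97). Ms4a4c was most like Irf7 (0.85), a transcription factor of the interferon response, Chmp2a (0.83) and Ndufb1 (0.81), and Ms4a4a was most like Adap2os (0.84), F7 (0.83) and Gm4258 (0.79).

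Between the genotypes, Ms4a4c was the member that differed most in macrophages. UEIS KI macrophages held 20.5 CPM [19.4 to 21.6] (1385 UMIs) and UEIS LSL macrophages 61.4 CPM [59.4 to 63.4] (3594 UMIs), a log2 ratio of UEIS KI over UEIS LSL of -1.58 [-1.67 to -1.49]. Ms4a4b was also lower in UEIS KI macrophages, with 2.78 CPM against 4.88 CPM and a log2 ratio of -0.81 [-1.09 to -0.54]. T cell markers summed to 7.90 and 9.08 CPM in the same macrophages, and their part in this was not tested. Of 7 members with at least 50 UMIs, these 2 passed a fold of 1.5 in the direction of lower macrophage levels in UEIS KI, and 0 passed it in the other. Of all 13433 genes measured there, 5.27% were as much lower and 5.8% as much higher.

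The other 5 members differed little. Ms4a6c had a log2 ratio of -0.33 [-0.35 to -0.31], Ms4a6d of -0.22 [-0.24 to -0.20], Ms4a6b of -0.21 [-0.24 to -0.18], Ms4a4a of -0.07 [-0.38 to 0.25] and Ms4a7 of 0.08 [0.06 to 0.10]. The median over the 7 members was -0.22, against 0.03 over all genes measured.

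**Figure D4:**
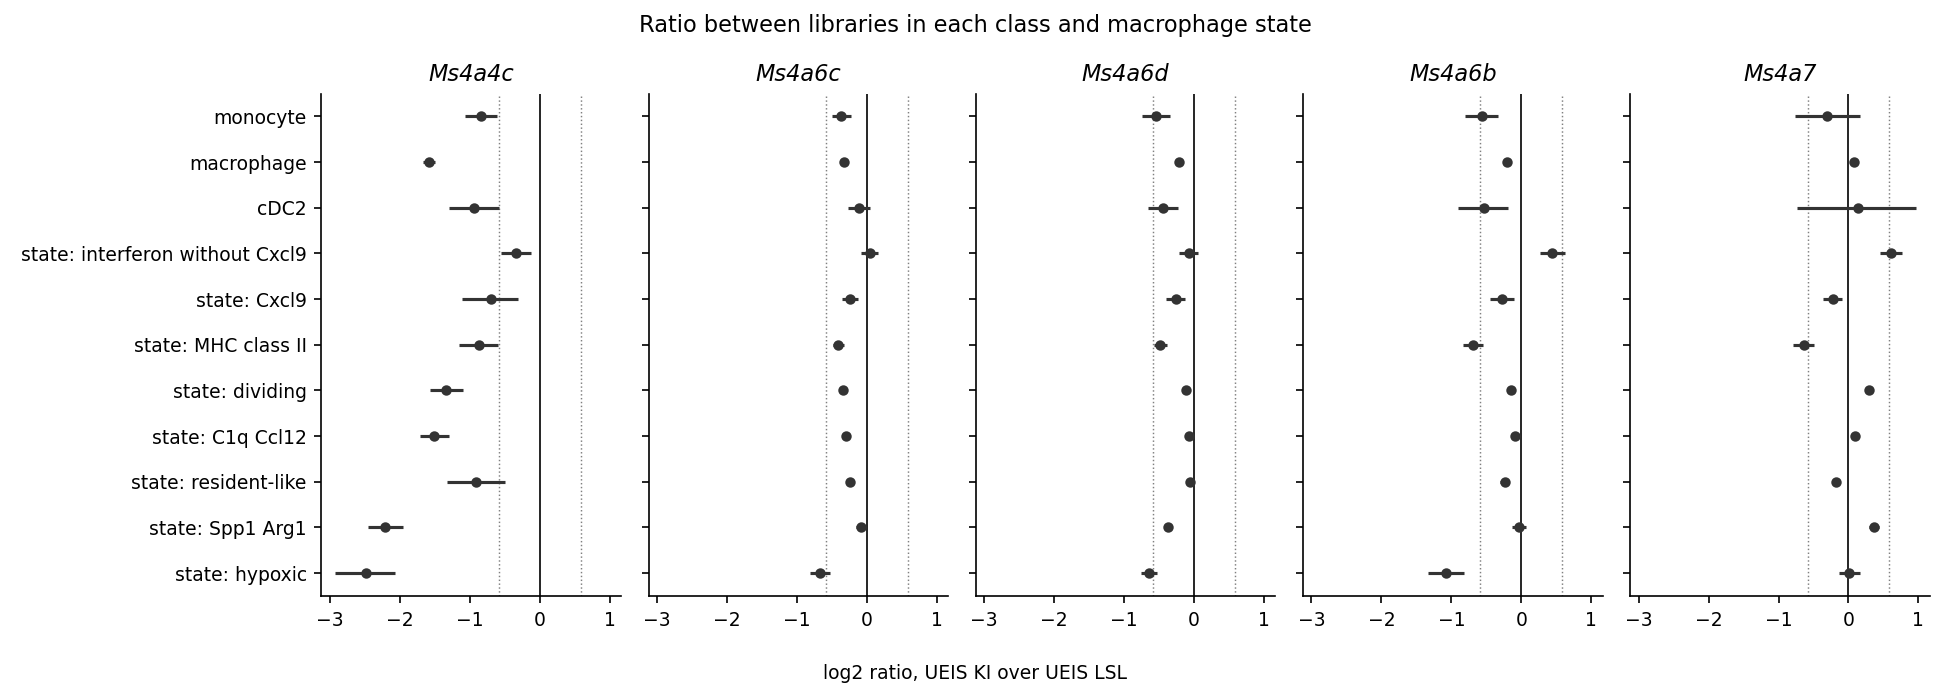
Log2 ratio of UEIS KI over UEIS LSL (0 is no difference) for Ms4a4c, Ms4a6c, Ms4a6d, Ms4a6b and Ms4a7, by class and macrophage state, with exact 95% conditional binomial intervals. Ms4a4a and Ms4a4b are not drawn. Ms4a4c lies below 0 in macrophages (-1.58), monocytes (-0.84) and cDC2 (-0.93), while Ms4a7 stands at 0.08 in macrophages.

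Ms4a4c was lower in UEIS KI in the other myeloid classes too. Its log2 ratio was -0.84 [-1.07 to -0.61] in monocytes and -0.93 [-1.29 to -0.59] in cDC2. It was the only member at least 1.5-fold lower there, 1 of 5 measured in monocytes, where 4.72% of 4238 genes were as much lower and 6.68% as much higher, and 1 of 5 in cDC2, where 4.14% of 6043 genes were lower and 4.24% higher. In monocytes the other members gave -0.57 (Ms4a6b), -0.54 (Ms4a6d), -0.36 (Ms4a6c) and -0.30 (Ms4a7), and 0 members were at least 1.5-fold higher in either class. Over all alternatives the monocyte ratio of Ms4a7, on 83 and 78 UMIs, ran from -1.23 to 0.13. That of Ms4a6d ran from -1.0 to -0.33, and those of Ms4a6b and Ms4a6c stayed below 0. The monocyte count was 3 with every cell thinned, 2 with classes taken from clusters and 2 with median-ratio scaling, and the cDC2 count was 2 with called doublets kept. The thinned share of monocytes with Ms4a4c was 16.7% [11.4 to 23.2] in UEIS KI and 36.0% [28.6 to 43.8] in UEIS LSL (unthinned 45.8% and 71.3%). Among fibroblasts it was 0 of 115 cells in UEIS KI, up to 2.61% at 3 counts of the total, and 0.51% in UEIS LSL. Mature dendritic cells had a lower Ms4a6c level in UEIS KI, with 78.2 CPM against 129 CPM and a log2 ratio of -0.72 [-1.40 to -0.07], 1 of 2 members measured (4.56% of 2456 genes lower, 7.94% higher). That ratio rested on 28 and 71 UMIs. Unthinned, Ms4a6c was found in 24.6% and 20.5% of these cells, and in 22.6% and 20.2% of the deeper fibroblasts. Thinned shares of 5.26% [1.10 to 14.6] and 7.95% [3.26 to 15.7] overlapped in their intervals, and those of fibroblasts were 0.87% and 4.57%. The level was 1.62 and 3.12 times that at the macrophage ratio to C1q.

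The difference in Ms4a4c recurred across macrophage states. In 8 of the 8 states where it was measured, the interval of its log2 ratio lay below 0, and in 7 it was at least 1.5-fold lower in UEIS KI. The share of all genes as much lower was 3.47% in resident-like, 4.44% in C1q Ccl12, 6.15% in Cxcl9, 5.43% in MHC class II, 4.76% in dividing, 3.99% in Spp1 Arg1 and 5.35% in hypoxic macrophages. The ratio was -2.48 [-2.93 to -2.06] in hypoxic macrophages (15.3 CPM against 85.7 CPM), -2.20 [-2.46 to -1.95] in Spp1 Arg1 macrophages and -1.51 [-1.71 to -1.30] in C1q Ccl12 macrophages. The smallest was that of the interferon state itself, -0.34 [-0.56 to -0.12]. Along the C1q ordering it ran from -2.05 to -1.35 in 7 of 7 bins. The 2 libraries also differed in the mix of macrophage clusters: weighted to the same mix, the macrophage ratio of Ms4a4c was -1.0.

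Values of 1 interferon-stimulated gene, added after they were seen, are set beside these. Isg15, the gene of a ubiquitin-like protein induced by interferon, had 42.6 CPM in UEIS KI macrophages and 120 CPM in UEIS LSL macrophages (log2 ratio -1.49 [-1.56 to -1.43]), and its ratio was -0.66 in monocytes and -1.64 in cDC2. In resident-like macrophages the ratio of Isg15 was 0.03 [-0.19 to 0.25] where that of Ms4a4c was -0.91 [-1.32 to -0.50]. In Cxcl9 macrophages the values were 0.20 [-0.02 to 0.41] for Isg15 and -0.70 [-1.11 to -0.31] for Ms4a4c. Of the 9 states, Isg15 is given for these only, after its values were seen, so they do not stand for the other states. Isg15 was itself among the markers of the interferon state. The part of interferon in the Ms4a4c difference was not tested.

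Ms4a7 had no single direction. Its ratio was 0.61 [0.45 to 0.77] in interferon macrophages (642 CPM in UEIS KI, 421 CPM in UEIS LSL), 0.36 [0.30 to 0.43] in Spp1 Arg1 macrophages, 0.01 [-0.13 to 0.16] in hypoxic macrophages and -0.64 [-0.79 to -0.49] in macrophages high for MHC class II (145 CPM and 226 CPM). It was 1 of 5 members at least 1.5-fold higher in the interferon state, where 10% of 5583 genes were, and in the MHC class II state it was among 3 of 6 measured members that were at least 1.5-fold lower, where 5.43% of 9635 genes were. C1qa had a ratio of 0.98 in the interferon state and -0.45 in the MHC class II state, beside 0.03 over all macrophages. It was added after its values were seen and is given for these states only. Its relation to the Ms4a7 ratios was not tested. The other members lower in the MHC class II state were Ms4a4c (-0.87) and Ms4a6b (-0.68). In hypoxic macrophages 4 of 5 members passed the fold in that direction, against 5.35% of 7609 genes, and Ms4a6b gave -1.07, Ms4a6c -0.67 and Ms4a6d -0.64.

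In the T and NK cell classes taken whole, no measured member passed 1.5-fold, while the 8 and 12 CD8 T cells described above had intervals of Ms4a4b that did not overlap. Ms4a4b in T cells had 74 UMIs in UEIS KI and 107 in UEIS LSL, a log2 ratio of -0.57 [-1.02 to -0.13], and Ms4a6b a ratio of 0.09 [-0.47 to 0.66], so 0 of 2 measured members passed the fold where 5.92% of 1233 genes were lower and 8.35% higher. In NK cells Ms4a4b had 60 and 49 UMIs and a ratio of -0.36 [-0.93 to 0.21], 0 of 1 measured, beside 16.9% of 402 genes lower and 13.9% higher. Ms4a1 in B cells, with 16 and 32 UMIs, was below the minimum for a ratio. These intervals cover counting error only. With 1 library for each genotype they set no limit on what difference between genotypes could be seen or missed.

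The rest of the family added little RNA. Of 15 other Ms4a genes listed, 13 were in the matrices and 7 of these had no UMI in macrophages of either library. Ms4a8a, a gene reported in mouse tumour macrophages, was the most abundant of them there, at 16.2 CPM in UEIS KI and 13.1 CPM in UEIS LSL (log2 ratio 0.31 [0.18 to 0.45]), and Ms4a14 had 9.42 and 5.92 CPM (0.67 [0.48 to 0.86]). Resident-like macrophages held more Ms4a8a, 45.3 and 48.0 CPM, as did monocytes, 41.4 and 39.3 CPM. Ms4a2, the beta chain of the high-affinity IgE receptor, had 8 and 4 UMIs in the 5 and 5 cells gated as mast cells, out of 14 and 9 in all kept cells. Among genes of proteins reported to work with Ms4a proteins, Clec7a (Dectin-1) had a macrophage log2 ratio of -0.36, Trem2 0.20, Tyrobp 0.13, Cd40 -0.51 and Tnfrsf18 -0.91. Thus 1 of 5 measured was at least 1.5-fold lower in UEIS KI, as were 5.27% of 13433 genes. Of the Tnfrsf18 UMIs in kept cells of both libraries, 17.6% were in macrophages and 44.8% in T cells with macrophage RNA. The part of T cell RNA in its macrophage ratio was not tested.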

How the data were processed

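Raw counts of UMIs per gene and cell were deposited by the authors as 1 filtered matrix for each library; per the submitters' processing notes they come from Cell Ranger 2.1.1 on mm10, but the matrix header gives 8.0.1. The depth was 99404988 UMIs in 9734 barcodes (UEIS KI) and 92764697 in 9527 (UEIS LSL). Cells passed with 500 or more UMIs, 200 or more genes and no more than 10% mitochondrial UMIs, and the highest Scrublet scores (0.8% per 1000 cells, scanpy 1.11.5) were removed as doublets. Classes were gated on the UMIs of marker sets per 10000 (macrophages: at least 30 and 6 of 12 markers; monocytes: C1q below 25). The members, lists and cuts were chosen with earlier results of these data known. Counts were summed by class and library, scaled to CPM and compared as ratios with exact conditional binomial intervals, shares with Clopper-Pearson intervals. A gene counted as measured with at least 50 UMIs over both libraries. A calculation on simulated counts with known folds was checked. Named genes were the members, the other listed Ms4a genes, Tmem176a, Tmem176b, 6 partner genes, and the 3 genes most like each member. Isg15 and C1qa were added after their values were seen. The planned comparison of proteins was replaced by coding sequences of the GENCODE transcripts. Alternatives varied the filters, doublets, depth, gates, scaling and cluster mix.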

Additional observations from a re-analysis of the deposited data

Results flagged for a closer look

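Ms4a7 went in opposite directions in 2 macrophage states. Its log2 ratio of UEIS KI over UEIS LSL was 0.61 in macrophages of the interferon response without Cxcl9, with an interval above 0, and -0.64 in macrophages high for MHC class II, with an interval below 0. The difference between the states was not tested, since each genotype is 1 library. C1qa, added after its values were seen and given for these states only, stood at 0.98 and -0.45. Its relation to the Ms4a7 ratios was not tested.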

How the results depend on the processing

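No paired analysis was possible because each group is 1 library. Ms4a4c in macrophages, monocytes and cDC2 and Ms4a4b in macrophages (-0.86 to -0.61) stayed below 0 under the other settings. The share of Ms4a6c in UEIS KI macrophages was 30.9% with cells thinned, 30.8% with every cell counted alike and 29.6% under a stricter gate (30.2% as reported), and in UEIS LSL macrophages 33.4% thinned and 32.8% from clusters (33.1%). In monocytes that share was 51.7% (UEIS KI) and 39.0% (UEIS LSL) thinned, and in UEIS KI cDC2 45.6% from clusters. Members at least 1.5-fold lower in UEIS KI monocytes numbered 3 thinned, 2 from clusters and 2 with median-ratio scaling, against 1. In cDC2, 1 member was at least 1.5-fold higher thinned, with every cell counted alike and from clusters, against 0, and 2 were lower with doublets kept, against 1. The share of Ms4a4b in T cells was 49.4% in UEIS KI thinned, but 8.94% (UEIS KI) and 5.51% (UEIS LSL) from clusters, where Ms4a6c led; the cause was not tested. Over all alternatives the log2 ratio of Ms4a4c ran from -1.69 to -1.0 in macrophages. Its range was -1.10 to -0.76 in monocytes, and the cDC2 range was -1.08 to -0.75, and that of Ms4a7 from -0.05 to 0.14 in macrophages. Ratios of Ms4a7 in cDC2 ran from -1.19 to 1.21 on 20 and 35 UMIs, and those of Ms4a4b in T cells from -0.58 to 0.08. Lymphocyte classes rest on 13 to 81 cells, and 1 library for each genotype leaves the variation between mice unmeasured.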

Other observations

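Tmem176a and Tmem176b, relatives of the Ms4a genes with a similar chain, were both lower in UEIS KI macrophages. Tmem176a had 47.3 CPM in UEIS KI and 145 CPM in UEIS LSL macrophages (log2 ratio -1.62 [-1.68 to -1.56]), and Tmem176b had 94.1 and 292 CPM (-1.63 [-1.68 to -1.59]). In cDC2 both were abundant, Tmem176a at 335 and 436 CPM and Tmem176b at 404 and 581 CPM, with ratios of -0.38 and -0.52. In T cells Tmem176b stood at 551 and 462 CPM.

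Ms4a4d was found almost only in fibroblasts, with 96.0% of its UMIs in kept cells of both libraries. It had 27.0 CPM in UEIS KI fibroblasts and 74.9 CPM in UEIS LSL fibroblasts, a log2 ratio of -1.47 [-1.93 to -1.04], where 8.72% of 9000 genes were at least 1.5-fold lower.

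Ms4a4c was compared over the macrophage-gated cells within clusters made without any Ms4a gene; most of the clusters were named for macrophages, 1 for cDC2 and 1 for monocytes. It was lower in UEIS KI, with an interval below 0, in 11 of 12 clusters where it was measured, with a median log2 ratio of -1.14 (-2.32 to -0.35). Ms4a6c was lower in 11 of 15 clusters and higher in 0, and Ms4a7 lower in 9 and higher in 4 of 15, from -0.73 to 1.23, the highest value being that of the 69 and 114 such cells in the cDC2 cluster.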
